A study of Mus musculus with 80 samples.

Results

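The 7136 regions described here are the widest stretches of chromatin carrying H3K27me3 in control uterine fibroblasts of the mouse. They were found by taking every autosomal peak of at least 20 kb in any of 6 control peak lists and merging those that overlapped or touched. In these lists 25091 of 1471718 peaks met the rule, and the merged domains covered 216 Mb, or 8.79% of the autosomes. The members were thus chosen by measured values, namely the widths of control peaks. The assay was CUT&RUN against H3K27me3, where a nuclease tethered by an antibody cuts out marked chromatin, on fibroblasts purified with magnetic beads from digested uterine tissue. Each deposited peak list pools 3 samples of a group, so 16 lists hold 48 of the 80 samples.

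Lists came from conditional knockout (cKO) females, in which Cre recombinase had deleted the floxed Kdm6b gene. Pgr-Cre acts in cells that express the progesterone receptor, and it gave 5 cKO lists. Of these, 3 held inter-implantation sites (IIS), 1 list each for gestation day (GD) 5.5, GD8.5 and GD14.5. The other 2 held implantation sites (IS), from GD14.5 and GD18.5. Pdgfra-Cre acts in fibroblasts and other cells that express this receptor, and it gave 1 cKO list, from GD14.5 IS. The 6 control lists came from Kdm6b f/f females of the same days and sites, 5 of the Pgr-Cre set and 1 of the Pdgfra-Cre set. The floxed allele is shared by the cKO and control groups, and all these females had been mated with B6 males. The further set of B6CBAF1/J females, which carry no floxed allele in the labels, held GD5.5 IIS after mating with a B6 male, GD5.5 uterus after mating with a vasectomized male, non-pregnant uterus after 3 days of progesterone, and GD0.5 uterus.

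Polycomb repressive complex 2 trimethylates lysine 27 of histone H3, and broad domains of this mark cover developmental genes that a cell type keeps silent. Kdm6b, also called JMJD3, is a demethylase that removes the mark. In uterine fibroblasts, which form the stroma and decidua around an implanting embryo, genes of other lineages such as epithelium, nerve and muscle are held silent while collagen and other matrix genes are active.

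The promoters below show the range of sequence inside the domains. They run from 250 bases before to 50 bases after the start, on the strand of the gene, in RefSeq's GRCm38.p6 (the same assembly as mm10). Capitals mark CG dinucleotides, which are dense in CpG islands, counted on the printed strand, which gives the same count as its complement. Trp73 encodes p73, a transcription factor of the p53 family, and its upstream start (chr4:154139826-154140125, minus strand) lies in the widest domain, with 39 CG. Tfap2e encodes the transcription factor AP-2 epsilon, and its promoter (chr4:126736220-126736519, minus strand, 17 CG) lies in the domain whose peak had the highest fold. The upstream promoter of Phyhipl (chr10:70599242-70599541, minus strand, 43 CG) lies in a domain fully covered in all 4 B6CBAF1/J lists. The promoter of Smok2b, of the sperm motility kinase family (chr17:13230013-13230312, plus strand, 2 CG), lies in a domain that was wide in all 6 control lists and nearly absent from the B6CBAF1/J lists. That of Cyp2c69, a cytochrome P450 gene (chr19:39886720-39887019, minus strand, 3 CG), lies in the domain least covered in cKO lists.
Trp73: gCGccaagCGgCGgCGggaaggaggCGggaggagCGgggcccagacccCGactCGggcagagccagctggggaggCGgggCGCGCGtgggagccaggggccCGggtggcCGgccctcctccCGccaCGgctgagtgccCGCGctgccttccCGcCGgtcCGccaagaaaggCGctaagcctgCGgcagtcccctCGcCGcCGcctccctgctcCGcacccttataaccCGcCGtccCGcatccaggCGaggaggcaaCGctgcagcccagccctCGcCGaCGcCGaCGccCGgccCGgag
Tfap2e: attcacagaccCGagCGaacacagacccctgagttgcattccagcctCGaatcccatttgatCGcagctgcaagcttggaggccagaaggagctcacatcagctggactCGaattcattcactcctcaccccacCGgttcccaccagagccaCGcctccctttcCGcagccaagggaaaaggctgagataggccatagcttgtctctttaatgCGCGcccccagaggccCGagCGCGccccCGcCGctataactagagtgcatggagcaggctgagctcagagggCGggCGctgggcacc
Phyhipl: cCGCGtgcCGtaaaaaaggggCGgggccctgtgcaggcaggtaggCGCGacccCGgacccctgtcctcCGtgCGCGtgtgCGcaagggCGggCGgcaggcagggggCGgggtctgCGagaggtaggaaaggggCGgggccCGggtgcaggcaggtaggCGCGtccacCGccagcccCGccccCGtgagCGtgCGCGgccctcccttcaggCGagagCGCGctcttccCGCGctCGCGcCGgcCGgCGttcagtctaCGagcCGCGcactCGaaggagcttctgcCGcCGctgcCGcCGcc
Smok2b: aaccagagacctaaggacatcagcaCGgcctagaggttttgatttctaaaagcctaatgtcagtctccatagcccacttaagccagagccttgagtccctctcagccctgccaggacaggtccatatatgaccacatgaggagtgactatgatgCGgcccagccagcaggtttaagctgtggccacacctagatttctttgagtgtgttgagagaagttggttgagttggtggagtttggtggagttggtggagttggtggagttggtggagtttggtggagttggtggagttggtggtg
Cyp2c69: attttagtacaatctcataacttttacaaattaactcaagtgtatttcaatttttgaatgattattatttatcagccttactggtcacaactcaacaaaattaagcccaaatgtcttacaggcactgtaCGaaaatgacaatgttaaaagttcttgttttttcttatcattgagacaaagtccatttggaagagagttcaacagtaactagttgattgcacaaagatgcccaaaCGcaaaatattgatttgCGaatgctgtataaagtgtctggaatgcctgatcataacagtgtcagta
Of the 20084 promoters of autosomal protein-coding genes in that table, 6.04% hold at least 39 CG, 3.50% at least 43, and 82.5% at least 3.

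Of 919 autosomal microRNA hairpins in RefSeq's table, 72 (7.83%) were inside a domain, where the domains made up 8.79% of the autosomes, so hairpins as a whole were not more often inside than their share of the genome. In domains at least 20 kb wide in all 6 control lists there were 30. The sequences of 3 groups were chosen after the hairpins inside were known, because each cluster sits whole in 1 domain or, for miR-9, each copy in its own domain. They are given with the seed (bases 2 to 8) in capitals. MiR-200b and miR-429 share the seed AAUACUG and differ from miR-200a, all 3 being known as keepers of epithelial identity. MiR-183, miR-96 and miR-182 are known from sensory cells, and miR-9 from neural progenitors.
miR-200b-3p: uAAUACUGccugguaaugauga
miR-429-3p: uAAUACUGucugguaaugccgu
miR-200a-3p: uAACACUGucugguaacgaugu
miR-183-5p: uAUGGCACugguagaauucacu
miR-96-5p: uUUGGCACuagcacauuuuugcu
miR-182-5p: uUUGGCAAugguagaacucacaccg
miR-9-5p: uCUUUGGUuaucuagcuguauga
The domain of Mir200b, Mir200a and Mir429 (chr4:156032737-156063061) was 30.3 kb wide, and its lowest, median and highest coverage was 88.1%, 93.2% and 95.3% in cKO lists, against 89.2%, 93.4% and 100% in control lists. The domain of Mir183, Mir96 and Mir182 (chr6:30162309-30200908) had 96.4%, 98.4% and 100% in cKO lists, against 89.6%, 95.3% and 97.5% in control lists. The lowest value of these domains in either genotype was thus 88.1%, and coverage of the hairpins alone is not given. All 3 copies of Mir9 were in domains, those of Mir9-1 and Mir9-2 wide in all 6 control lists and that of Mir9-3 in 5.

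The domains were 20 to 80.6 kb wide with a median of 28 kb. In all, 961 were at least 40 kb and 60 at least 60 kb. A domain was at least 20 kb wide in all 6 control lists in 1779 cases (24.9%) and in 1 list alone in 1693 cases (23.7%), with 1139, 835, 800 and 890 domains in 2, 3, 4 and 5 lists. The median width was 35.9 kb in domains of all 6 lists and 21.9 kb in those of 1 list. The rule's threshold cuts through a continuum. The 652 domains whose widest control peak was 20 to 21 kb had a median coverage of 91.2% in cKO lists and 95.3% in B6CBAF1/J lists. The 694 regions just outside, with a control peak of 19 to 20 kb, had 90% in cKO lists and 94.0% in B6CBAF1/J lists. Coverage here and below is the percent of a domain, window or gene span that lies inside merged peaks of a list.

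The domains were seldom 1 unbroken peak. The median number of peaks per domain was 3 in each of the 6 cKO lists, 2 or 3 in control lists and 1 or 2 in B6CBAF1/J lists. Domains with 1 peak alone made up 11.5% to 15.7% in cKO lists, 16.0% to 25.5% in control lists and 43.1% to 54.0% in B6CBAF1/J lists. Neighbouring domains lay a median of 120 kb apart, and 2966 domains (41.6%) had another within 50 kb. Peaks of at least 20 kb numbered 3972 to 4638 in cKO lists, 3801 to 4685 in control lists and 7365 to 8461 in B6CBAF1/J lists, so widths in the Kdm6b and B6CBAF1/J sets are given side by side only.

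The signal in the domains was modest. The authors' fold of a peak over background had a median of 1.41 to 1.48 for peaks of at least 20 kb in cKO lists, 1.45 to 1.54 in control lists and 1.30 to 1.33 in B6CBAF1/J lists. For all autosomal peaks it was 1.12 to 1.15 in cKO lists, 1.11 to 1.14 in control lists and 1.08 to 1.09 in B6CBAF1/J lists. The median -log10 q of the wide peaks was 0.320 to 0.546 in cKO lists, 0.467 to 0.958 in control lists and 0.400 to 0.615 in B6CBAF1/J lists. A -log10 q of at least 2 was reached by at most 4.20% of wide peaks in a cKO list, 20.1% in a control list and 11.3% in a B6CBAF1/J list, so most of these wide regions were called at lenient settings.

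Nearly all of the domain length was inside peaks in every list. Mean coverage over the 7136 domains was 90.3% to 91.5% in the 6 cKO lists, 90% to 93.8% in the 6 control lists and 92.4% to 94.4% in the 4 B6CBAF1/J lists. The autosomes as a whole were covered at 25.1% to 27.9% in cKO lists, 21.1% to 26.2% in control lists and 23.5% to 24.6% in B6CBAF1/J lists. Outside the domains, coverage was 18.7% to 21.8% in cKO lists, 14.4% to 19.7% in control lists and 16.7% to 18.0% in B6CBAF1/J lists. A domain covered at under 50% was rare, with 23 to 75 per cKO list, 11 to 35 per control list and 48 to 97 per B6CBAF1/J list. Every control value of these domains was used in choosing them, so the cKO and control values of a domain are a description here and below, with no comparison of genotypes.

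**Figure D1:**
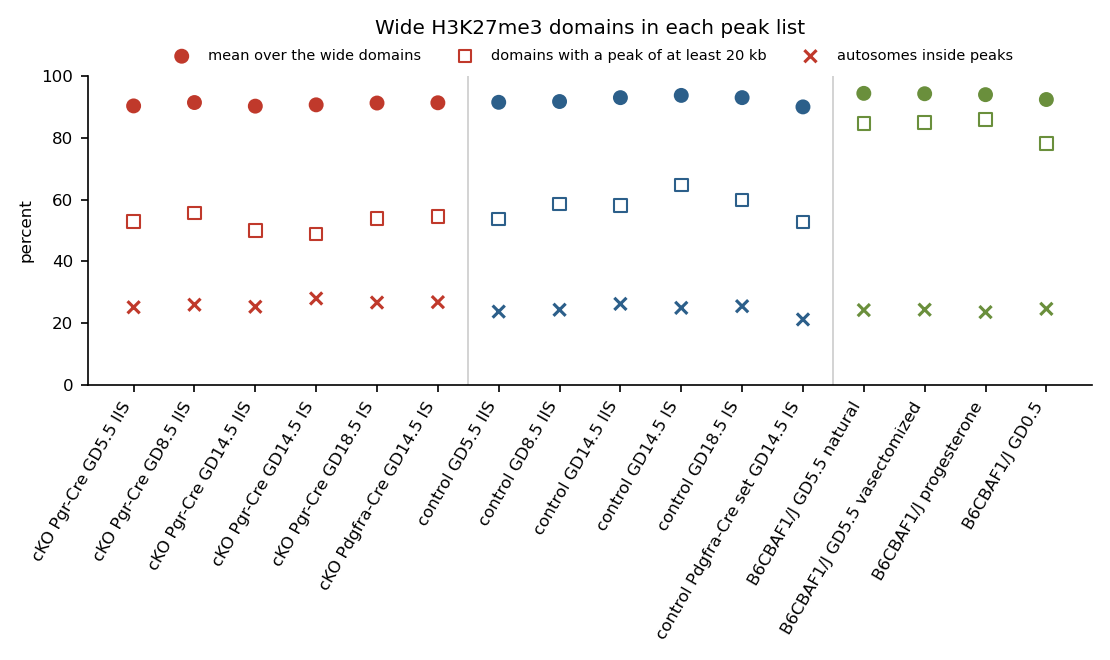
Each column is 1 peak list (6 cKO, 6 control, 4 B6CBAF1/J). Filled circles give the mean percent of a domain inside peaks, open squares the percent of the 7136 domains overlapping a peak of at least 20 kb, and crosses the percent of the autosomes inside peaks. Domain coverage is 90% or more in every list, while the autosomes reach 27.9% at most.

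The same count of wide peaks was made without the control lists. Of the 7136 domains, 1653 overlapped a peak of at least 20 kb in all 6 cKO lists and 1242 in none, and 4856 did so in all 4 B6CBAF1/J lists and 399 in none. Recurrence in control lists and in the other lists ran together. Among domains of all 6 control lists, 68.5% were wide in all 6 cKO lists and 96.0% in all 4 B6CBAF1/J lists. Among domains of 1 control list, 1.18% were wide in all 6 cKO lists and 36.7% in all 4 B6CBAF1/J lists. Mean coverage in cKO lists was 94.2% in domains of 6 control lists and 87.6% in those of 1 control list, and in B6CBAF1/J lists it was 95.8% and 91.0%. All but 1 of the 24 domains with a mean below 50% over the cKO lists were wide in only 1 control list.

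**Figure D2:**
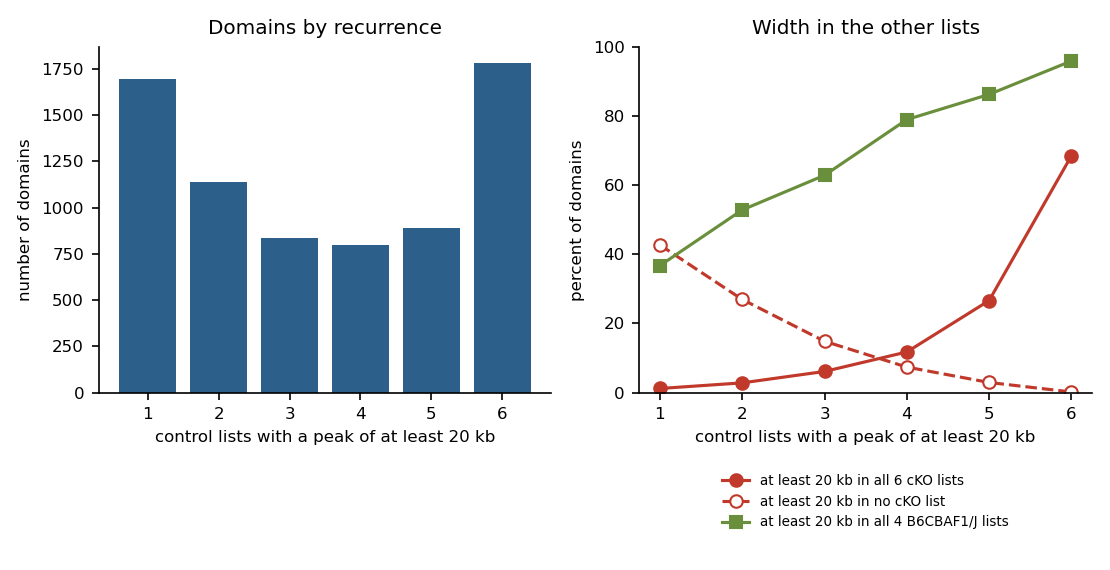
Left, number of domains by how many of the 6 control lists hold a peak of at least 20 kb there. Right, for each of those classes, the percent of domains with such a peak in all 6 cKO lists (filled circles, up to 68.5%), in no cKO list (open circles, down to 0.169%) and in all 4 B6CBAF1/J lists (squares, up to 96.0%).

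The genotypes were set side by side on lists that had no part in the choice, though lists of 1 genotype still chose the domains. For each of the 6 pairs of the same Cre set, day and site, domains were rebuilt from the other 5 control lists (6783 to 6990 domains). Their mean coverage was 91.2% ± 0.52 in the cKO lists and 91.8% ± 1.32 in the control lists left out (SD, n = 6 each). The difference was -0.62 ± 1.49 points (SD, 6 pairs), less than its spread, with cKO lower in 4 of 6 pairs. The differences were -0.68 at GD5.5 IIS, 0.35 at GD8.5 IIS, -1.87 at GD14.5 IIS, -2.37 at Pgr-Cre GD14.5 IS, -0.86 at GD18.5 IS and 1.71 in the Pdgfra-Cre pair. When all lists were cut to the same covered length, the difference was -2.29 ± 1.54 points, with cKO lower in 6 of 6 pairs. When the domains were instead built from the other 5 cKO lists (7231 to 7500 domains), cKO lists were higher in 6 of 6 pairs, by 4.12 ± 1.36 points. The mean was thus negative with domains from control lists and positive with domains from cKO lists. Its sign followed the genotype whose lists chose the domains, so it is not read as an effect of genotype, and no p is given. With domains from control lists as deposited, 2 of 6 pairs went the other way. Both the equal covered length and the domains from cKO lists were added to this comparison after the data were seen.

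**Figure D3:**
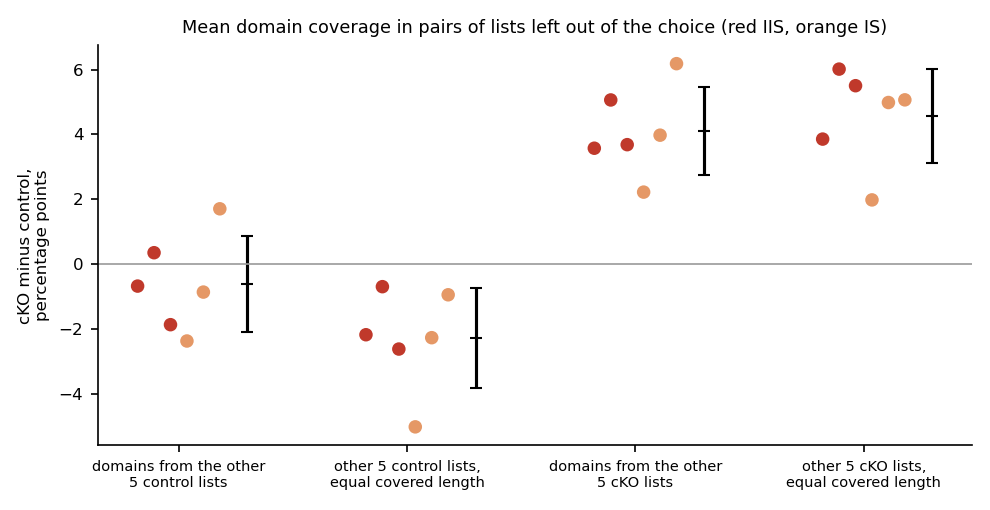
Difference in mean domain coverage, cKO minus control, for each of 6 pairs (dots, red for IIS and orange for IS) when neither list of the pair chose the domains. Black bars are the mean and SD over 6 pairs. Domains from control lists give -0.62 and -2.29 points, and domains from cKO lists give 4.12 and 4.57 points.

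Over all 125901 autosomal windows of 10 kb with a mean coverage of at least 5%, limma on the 6 paired differences (adjusted p under 0.05) called 13.8% higher and 4.59% lower in cKO lists. Of 14469 windows wholly inside a domain, 19 (0.131%) were called higher and 292 (2.02%) lower. The rule used the control lists of that contrast, so nothing is read from the domain counts, and 2564 of these windows were already full in all 12 lists. The cKO lists also covered more of the autosomes, a mean of 26.2% against 24.3% in control lists, and depth is unknown. With all lists cut to the same covered length, 3.86% of 92656 windows were called higher and 1.65% lower.

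Developmental transcription factor genes overlapped the domains far more often than genes at large. Of 20661 autosomal protein-coding genes, 4104 (19.9%) overlapped a domain, and 14.4% of those with a promoter in the table had it wholly inside. Of 226 homeobox and other developmental transcription factor genes, 192 (85.0%) overlapped a domain and 122 of 152 promoters (80.3%) were inside. Their 201 domains had a median width of 40.5 kb, and 57.2% of them were wide in all 6 control lists, against 24.9% of all domains. Ligands and antagonists of Wnt, BMP, FGF and hedgehog signalling overlapped domains in 46 of 80 cases (57.5%), and ion channel and neurotransmitter receptor genes in 137 of 221 (62.0%). Channel genes had a median span of 42.6 kb, against 17.5 kb for all genes, so an overlap is reached more easily. Only 33 of them (14.9%) lay wholly inside a domain, against 6.09% of all genes.

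**Figure D4:**
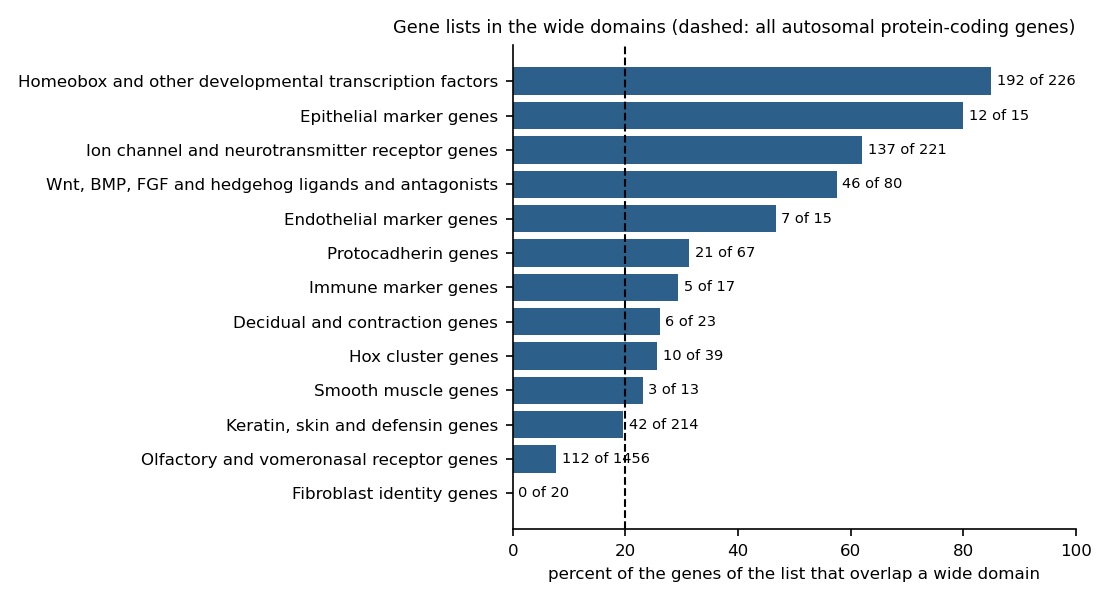
Percent of the autosomal genes of each list that overlap a wide domain, with the number beside each bar. The dashed line is the 19.9% of all autosomal protein-coding genes. Developmental transcription factors stand at 85.0% and fibroblast identity genes at 0%.

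Genes that define fibroblasts were outside. None of the 20 fibroblast identity genes overlapped a domain, among them Col1a1, Col1a2 and Col3a1 (fibrillar collagens), Dcn (decorin), Fn1 (fibronectin) and Vim (vimentin). The median share of their span inside any peak was 0 in cKO, control and B6CBAF1/J lists alike. Pdgfra, the receptor that marks uterine fibroblasts, was covered at a mean of 22.3% in cKO lists, 21.1% in control lists and 29.4% in B6CBAF1/J lists. Thy1, a surface glycoprotein of fibroblasts, was covered at a mean of 23.6% in cKO lists, 11.9% in control lists and 0 in B6CBAF1/J lists. It was at 0 on GD5.5 and GD8.5 in both genotypes and had values above 0 in every list from GD14.5 on, between 16.6% and 45.7% in cKO and between 1.14% and 37.8% in control lists. The genes that define the labelled cell type were thus outside the wide domains, and some of them had smaller peaks.

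Among markers of other uterine cells, epithelial genes were the most often inside. Of 15 epithelial genes, 12 overlapped a domain, including Cdh1 (E-cadherin), Epcam and Foxa2, the transcription factor of uterine glands. The domain of Epcam had a lowest, median and highest coverage of 91.4%, 96.6% and 100% in cKO lists, against 86.5%, 91.0% and 98.2% in control lists. That of Foxa2 had 92.6%, 94.5% and 97.6% in cKO lists, against 93.8%, 96.5% and 98.6% in control lists. The lowest value of these domains in either genotype was thus 86.5%, and coverage of the genes alone is not given. Endothelial genes overlapped in 7 of 15 cases (46.7%), among them Sox17 and Tie1, and immune genes in 5 of 17 (29.4%), among them Ptprc (CD45) and Cd4. Endothelial genes had a median span of 42.9 kb, against 17.5 kb for all genes, so an overlap is reached more easily. Of each of these 2 lists, 3 genes lay wholly inside a domain (20% and 17.6%, against 6.09% of all genes). Olfactory and vomeronasal receptor genes, which are also silent in fibroblasts, overlapped in 112 of 1456 cases (7.69%), against 19.9% of all genes. Their median span was 0.951 kb, against 17.5 kb for all genes, and 7.28% of them lay wholly inside a domain, against 6.09% of all genes, so the 2 measures differ in direction. Their promoters inside domains had a median of 1 CG, against 18 for developmental transcription factors inside domains. Over all promoters of these lists, inside domains or not, the medians were 1 and 17.5 CG.

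Hox genes, which set position along the body axis, overlapped domains in 10 of 39 cases (25.6%), near the 19.9% of all genes. Of the 39, 7 (17.9%) lay wholly inside a domain, against 6.09% of all genes. Promoters were inside in 5 of 22 cases (22.7%), against 14.4% of all genes. Among the 10 were genes near the ends of the clusters, Hoxb1 and Hoxd1 at one end and Hoxa13, Hoxc13, Hoxd12 and Hoxd13 at the other. Hoxc8, Hoxc9 and Hoxc10 also overlapped. Hoxa10 and Hoxa11, which mouse uterine stroma needs for implantation, overlapped none. The domain of Hoxd13 had a lowest, median and highest coverage of 92.0%, 93.3% and 96.2% in cKO lists, against 87.6%, 90.9% and 100% in control lists.

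In all, 2086 domains held a promoter of a protein-coding gene, 2097 overlapped such a gene without a promoter in the table, and 2953 overlapped none. Domains with a promoter were wide in all 6 control lists in 39.9% of cases, those with a gene alone in 21.2% and those without a gene in 17%. The fold over background ran the same way, with medians of 1.40 to 1.48 over the cKO lists for domains with a promoter and 1.31 to 1.37 for those with no gene. Promoters inside domains had a median of 10 CG, against 14 outside. Within the domains the median was 12 CG where all 6 control lists were wide and 7 CG where 1 list was.

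The widest domain held nearly all of Trp73 and overlapped Wrap73 (chr4:154061862-154142456, 80.6 kb, of which Trp73 fills 78.0 kb). Its lowest, median and highest coverage was 89.6%, 94.7% and 97.0% in cKO lists, against 86.5%, 92.1% and 98.5% in control lists. The next, of 80.4 kb, held all of Gata4, a transcription factor of heart and gonad, and reached Neil2 (chr14:63192887-63273250). It had 81.3%, 94.7% and 97.4% in cKO lists, against 89.0%, 91.9% and 95.2% in control lists. Coverage of both domains was thus at least 81.3% in every cKO and control list. The other 8 of the 10 widest, 70.8 to 79.6 kb, included those of Srrm3 (a splicing factor of neurons), Vstm2l, Pkp3 with Ano9, B4galnt4 and Sigirr, Mroh8 with Rpn2, Neurod2 (a neuronal transcription factor) with Ppp1r1b, and Sox10 (a neural crest transcription factor). The remaining 2 overlapped no protein-coding gene. Coverage of the Sox10 domain was 84.8%, 88.9% and 96.2% in cKO lists, against 84.5%, 92.4% and 98.4% in control lists.

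The highest fold of a wide peak, 3.20, was in the domain of Tfap2e (chr4:126718332-126742125, 23.8 kb), whose promoter is printed above. The mean fold of its peaks, weighted by overlap, was 1.86 to 2.47 in cKO lists, 2.40 to 3.20 in control lists and 2.27 to 2.39 in B6CBAF1/J lists. These folds depend on the background of each list, so lists are not compared on them. Other domains with a high fold in a control list were those of Rhbdd1 (3.00), Dcaf10 (2.86) and Cth with Ankrd13c (2.80). These 4 domains were 21.1 to 25.6 kb wide, so the highest folds were not in the widest domains.

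Among the 30 longest overlaps with a listed developmental or uterine gene were Foxp2, Eya4, Zfhx4, Lmx1a, Tbx5, Lhx4, Sim2, Lhx2, Tfap2b, Tbx18, Onecut1, Pax6, Gata6 and Gata3, all transcription factors or their partners. Taking for each gene the domain with the longest overlap, median coverage in cKO lists was 88.2% to 98.5% for the 29 genes other than Kcnma1. Tbx18 and Lhx2 lay wholly inside domains of 56.0 and 66.2 kb. Coverage of the Tbx18 domain was 80.7%, 95.4% and 98.9% in cKO lists, against 88.6%, 94.9% and 97.3% in control lists.

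Genes of smooth muscle and of parturition overlapped domains about as often as all genes, of which 19.9% did. Smooth muscle genes overlapped in 3 of 13 cases (23.1%), Actg2, Lmod1 and Myocd. Actg2 encodes the gamma actin of visceral smooth muscle, and its whole 23.3 kb lay in a domain wide in all 6 control lists (chr6:83509590-83539714). Coverage there was 77.0%, 82.6% and 91.0% in cKO lists (lowest, median, highest), against 89.0%, 92.0% and 96.4% in control lists. Median coverage of the 4 domains of this list was 82.6% in cKO lists, 89.3% in control lists and 87.8% in B6CBAF1/J lists, where all domains had 92.7% in cKO lists, 93.2% in control lists and 96.0% in B6CBAF1/J lists. Decidual and contraction genes overlapped in 6 of 23 cases (26.1%), namely Ptgs1 (a cyclooxygenase), Bmper, Cyp11a1 (the side chain cleavage enzyme of steroid synthesis), Slco2a1 (the prostaglandin transporter), Inhba and Kcnma1 (the large conductance potassium channel).

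The Kcnma1 domain showed the widest range among them. This 29.4 kb domain within the gene (chr14:23893611-23923036) was covered at 94.4%, 87.4%, 87.1%, 77.7%, 56.4% and 70.9% in cKO lists of GD5.5 IIS, GD8.5 IIS, GD14.5 IIS, Pgr-Cre GD14.5 IS, GD18.5 IS and Pdgfra-Cre GD14.5 IS. In control lists of the same order it was covered at 95.5%, 93.8%, 62.3%, 8.93%, 0% and 1.36%. The genotypes were alike on GD5.5 and GD8.5. The GD14.5 IIS pair and all 3 IS pairs had more of the domain inside peaks in cKO. This is a description with no test and no comparison of genotypes, since the control values helped to choose the domain. A second Kcnma1 domain, which reaches past one end of the gene (chr14:23992959-24027319), had 88.5%, 90.9%, 89.0%, 83.3%, 81.9% and 90.2% in cKO lists, against 88.8%, 86.6%, 90.3%, 73.4%, 61.0% and 72.8% in control lists. The domain of Slco2a1 (chr9:103089154-103114863) had 82.5%, 89.4% and 94.2% in cKO lists (lowest, median, highest), against 54.2%, 78.7% and 100% in control lists.

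Sites and days could be compared among the cKO lists, which the rule did not use. Limma on the 3 cKO IS lists against the 3 cKO IIS lists called 0 of 123967 windows higher (0% of all windows) and 0 lower (0%) at an adjusted p under 0.05. At an unadjusted p under 0.05, 16598 windows (13.4%) were found in all and 680 of the 14469 domain windows (4.70%). Of the 14469 domain windows, 3506 were already full in every cKO list and could not differ, so these shares are not compared. Site, day and Cre cannot be told apart in this contrast, as the IS lists are later and 1 has another Cre. Over whole domains, mean coverage was 91.1% in cKO IS lists and 90.7% in cKO IIS lists, and 94.4% of domains differed by less than 10 points.

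A small group of domains varied far more. Those named from here through the comparisons of B6CBAF1/J conditions were chosen after their values were seen. In cKO lists 20 of the 7136 domains were at least 25 points higher in IS and 34 at least 25 points lower. Of the latter, 5 were lower by at least 50 points. All 54 had the same direction in control lists, whose values helped to choose the domains. The same share over all domains is not given, so this agreement is a description only. The smallest adjusted p of limma for a window in any of the 54 was 0.0981, so none passed. By the same measure, control lists had 29 domains at least 25 points higher in IS and 51 at least 25 points lower. At 50 points, control lists had 1 domain higher and 9 lower.

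The largest fall was at Fkbp5, which encodes a co-chaperone of steroid receptors and is a known target of progesterone and glucocorticoids. The 35.1 kb domain lies within the gene (chr17:28449968-28485068). In cKO it was covered at 0% in Pgr-Cre GD14.5 IS, 2.77% in GD18.5 IS and 3.81% in Pdgfra-Cre GD14.5 IS, against 93.8%, 98.5% and 38.9% in GD5.5, GD8.5 and GD14.5 IIS. In control it was covered at 9.00%, 0% and 6.08% in the same IS lists, against 93.2%, 98.7% and 70.4% in the IIS lists. This domain was picked for its fall in cKO lists, and control values helped to choose it. The gap between its cKO IS and cKO IIS lists thus follows from the choice (limma adjusted p = 0.151 for the lowest of its 3 windows in cKO lists). The gap in control lists was not tested. In B6CBAF1/J fibroblasts the domain was covered at 90.9% at GD5.5 after natural mating, 95.9% after vasectomized mating and 98.3% after progesterone. At GD0.5 it was covered at 73.0%.

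Pdlim5, whose protein binds actin filaments through its PDZ and LIM domains, had a 30.8 kb domain within the gene with a like course (chr3:142328671-142359500). In cKO it was covered at 0%, 18.8% and 11.8% in the IS lists, against 92.3%, 94.0% and 34% in the IIS lists. In control it was 15.4%, 9.89% and 31.6% in IS, against 78.7%, 100% and 67.3% in IIS (limma adjusted p = 0.315 in cKO lists). In B6CBAF1/J it was 86.3% at GD5.5 after natural mating and 100% both after vasectomized mating and after progesterone, against 10.0% at GD0.5. The other 3 with a fall of at least 50 points were the domain of Tmem200c, a membrane protein gene, and 2 domains without a gene. That of Tmem200c (chr17:68829965-68850378) was covered at 38.2%, 45.6% and 46.4% in cKO IS lists, against 100%, 97.7% and 92.2% in cKO IIS lists, with the smallest adjusted p of all 54 (0.0981).

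Other domains were higher in IS. A domain within Zfp423, a zinc finger transcription factor gene (chr8:87711631-87738019), was covered at 94.3%, 93.7% and 98.3% in cKO IS lists, against 31.3%, 43.2% and 97.5% in cKO IIS lists of GD5.5, GD8.5 and GD14.5. One at Col18a1, the gene of collagen XVIII (chr10:77153848-77179151), had 97.7%, 97.5% and 97.7% in cKO IS, against 44.3%, 47.2% and 90.5% in cKO IIS. One within Pip5k1b, a phosphoinositide kinase gene (chr19:24333648-24370231), had 89.3%, 97.1% and 97.6% in cKO IS, against 24.2%, 39.6% and 95.0% in cKO IIS. In all 3 domains cKO GD14.5 IIS lay nearer to the cKO IS lists than to the earlier days. In control lists Zfp423 had 100%, 85.9% and 90.1% in IS, against 25.1%, 50.6% and 87.6% in IIS. Col18a1 had 97.7%, 99.7% and 94.3% in control IS, against 44.9%, 38.4% and 62.4% in control IIS. Pip5k1b had 100%, 81.6% and 73.6% in control IS, against 9.92%, 28.2% and 68.8% in control IIS. Control GD14.5 IIS thus lay among the IS lists at Zfp423, and below all of them at Col18a1 and Pip5k1b.

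**Figure D5:**
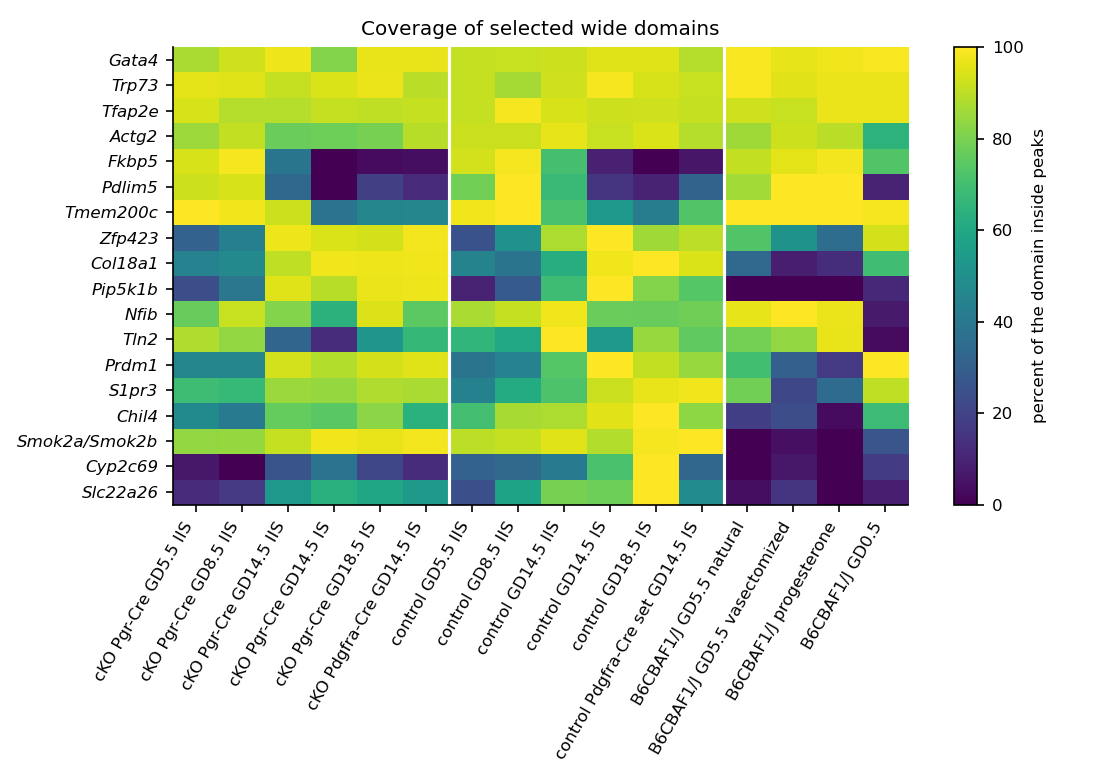
Percent of 18 domains inside peaks (colour, 0 to 100) in 16 lists (columns), with the gene named at the left and, where a gene has several domains, the most variable one shown. Gata4, Trp73 and Tfap2e are at 81.3% or more in every list. Fkbp5 (0 to 9.00%) and Pdlim5 (0 to 31.6%) are low in the IS lists of both genotypes. Smok2a/Smok2b is at 83.9% or more in cKO and control lists and at most 26.2% in B6CBAF1/J lists.

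In B6CBAF1/J fibroblasts few domains differed by at least 50 points between conditions. Each condition has 1 list, so a domain counts as changed at a difference of at least 50 points and there is no test. Natural mating at GD5.5 against GD0.5 gave 24 domains higher (0.336%) and 1 lower (0.0140%), where 0.867% of all 10 kb windows were higher and 0.691% lower. Vasectomized mating gave 36 higher (0.504%) and 9 lower (0.126%), where 1.03% and 0.912% of windows were. Progesterone gave 38 higher (0.533%) and 23 lower (0.322%), where 1.32% and 1.47% of windows were. Natural against vasectomized mating gave 2 higher and 0 lower, where 0.196% and 0.178% of windows were. These shares were thus lower in the domains than over all windows, which are smaller units, and no test was made. Since the 3 comparisons with GD0.5 share that list, their overlap is not read as a result.

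The domains named here were also picked after their values were seen, so the gaps between conditions follow from the choice. Those higher than at GD0.5 included 1 within Nfib, the gene of a nuclear factor I transcription factor (chr4:82325599-82354788). It was 96.2% after natural mating, 100% after vasectomized mating and 97.0% after progesterone, against 7.37% at GD0.5. One within Tln2, the gene of the adhesion protein talin 2 (chr9:67263532-67283589), was 79.3%, 83.7% and 96.5% in the same order, against 2.87% at GD0.5. Among the lower ones was a domain within Prdm1, the gene of the repressor Blimp-1 (chr10:44452245-44475000), at 69.8%, 30.7% and 17.1%, against 100% at GD0.5. The 1 domain lower after natural mating held Chil4, a chitinase-like gene (chr3:106201384-106239317), at 18.4% after natural mating, 23.6% after vasectomized mating and 3.09% after progesterone, against 68.6% at GD0.5. The 2 domains higher after natural than after vasectomized mating were those of S1pr3, a receptor of sphingosine 1-phosphate, at 78.6% against 21.7%, and of Nr2e3, an orphan nuclear receptor gene, at 84.6% against 31.8%.

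Domains that B6CBAF1/J lists lacked were few. In 40 domains the mean over the 4 lists was below 50%, and in 13 of these the mean over cKO lists was at least 80%. The clearest was the 29.4 kb domain of Smok2a and Smok2b (chr17:13210554-13239956), wide in all 6 control and in 4 cKO lists. Its coverage was 83.9%, 93.9% and 98.3% in cKO lists (lowest, median, highest), against 88.6%, 93.2% and 99.6% in control lists. In B6CBAF1/J it was 0% after natural mating, 4.19% after vasectomized mating and 0% after progesterone, against 26.2% at GD0.5. The other 4 lowest were at Pip5k1b, Cyp2c69, Slc22a26 (an organic anion transporter) and Olfr1499 with Olfr1500, all on chromosome 19, and each was wide in 1 control list. Smok2, Cyp2c, Slc22a and olfactory receptor genes have close copies, to which reads may be assigned uncertainly, and strain was not varied within a set, so strain and set cannot be told apart here.

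The lowest means over cKO lists were at Cyp2c69, a domain without a gene, Olfr13 with Olfr437, Olfr1499 with Olfr1500, and Dchs1 (a large cadherin) with Mrpl17, all wide in 1 control list. A low cKO mean chose them and a wide control peak let them in, so the gap to the control lists follows from the selection. The domain of Olfr13 and Olfr437 (chr6:43158046-43179699) was covered at 18.9% to 35.6% in cKO lists, against 55.3% to 100% in control lists. That of Dchs1 (chr7:105777377-105804622) was covered at 87.8%, 22.7% and 65.1% in GD5.5, GD8.5 and GD14.5 IIS and at 22.4%, 9.01% and 20.7% in the IS lists of cKO. In control it was covered at 100%, 70.7% and 0% in the IIS lists and at 0%, 7.01% and 30.1% in the IS lists, so it was low in later lists of both genotypes, other than cKO GD14.5 IIS. At the other end, the domain of Slc26a10 and B4galnt1, a ganglioside synthase gene (chr10:127153513-127180496), was covered at 100% in all 6 cKO lists, against 82.7%, 94.4% and 100% in control lists. The domain of Phyhipl was 94.8% to 98.9% covered in cKO lists and 94.1% to 99.7% in control lists, and 100% in all 4 B6CBAF1/J lists.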

How the data were processed

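The submitters' processing notes name STAR 2.7.5c, samtools 1.10, Picard, bedtools 2.29.1, macs2 2.2.7.1 and bedGraphToBigWig 2.8 with the build mm10. Broad peaks were called, per the file names in the labels. The deposited lists give the position of each peak, its fold (a ratio over background), -log10 p and -log10 q. Each list pools 3 samples, so replicates within a list are not separable and the spread is that over lists. Depth per list is unknown. The other 32 samples, inputs and a second round of libraries, are not analysed here.

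Starts were turned into 1-based positions, peaks merged, and coverage computed in domains, windows of 10 kb and gene spans (annotation of RefSeq's GRCm38.p6, without exons, so exon and intron are not told apart). Windows entered limma 3.58.1 at 5% mean coverage or more (R 4.3.3), a moderated fit with Benjamini-Hochberg adjustment, which was first tested on simulated data. Other steps used python 3.11.15, numpy 2.4.6, pandas 2.3.3 and matplotlib 3.10.9. Pairs were the same Cre set, day and site, taken as independent.

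The members and gene lists were chosen with earlier results of these data known. Named domains were the 10 widest, 5 highest by fold, 5 lowest and 5 highest in mean cKO and in mean B6CBAF1/J coverage, and 5 in the most control lists, plus listed genes by overlap. Alternatives were widths of 15 and 25 kb, folds of at least 1.2, -log10 q of at least 2, windows of 20 kb, no filter, equal covered length (peaks from the lowest p upward to 80% of the shortest list, 487 Mb in the Kdm6b set and 544 Mb in the B6CBAF1/J set), unpaired fits and leaving out each list. Some items that these rules name are not reported here.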

Additional observations from a re-analysis of the deposited data

Results flagged for a closer look

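In 103 groups of lists, 14 held 1 list farther from the rest than Dixon's 95% limit, and chance gives about 1 in 20. Most lie near full coverage. In cKO lists, GD14.5 IIS was lowest at Srrm3 (92.8%, next 96.3%) and at a domain without a gene on chromosome 15 (98.2%, all others 100%). GD8.5 IIS was lowest at Dcaf10 (96.3%, next 99.4%), at another gene-less domain on chromosome 15 (98.8%, all others 100%) and at one on chromosome 7 (86.2%, next 91.5%). GD5.5 IIS was lowest at Rnd1 (97.7%, next 99.6%) and at Pck1 with Ctcfl (91.5%, next 92.7%). In control lists, GD8.5 IIS was highest at Tfap2e (98.6%, next 93.9%) and lowest at Slc26a10 with B4galnt1 (82.7%, next 93.8%), and the Pdgfra-Cre set GD14.5 IS was lowest at a gene-less domain on chromosome 6 (97.7%, next 99.5%). In B6CBAF1/J lists, vasectomized mating stood at 99.9% at Slc26a10 with B4galnt1 and GD0.5 at 98.9% at Rnd1, where the others were at 100%. GD0.5 was highest at Pip5k1b (11.3%, all others 0%) and at Smok2a with Smok2b (26.2%, next 4.19%). No named domain had all 3 IIS pairs differing one way and all 3 IS pairs the other.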

How the results depend on the processing

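A width of 15 kb gave 11239 domains and 25 kb gave 4320, against 7136. Requiring a fold of 1.2 or 2 lists stayed within 1.5 times, and leaving out 1 control list gave 6783 to 6990. Mean coverage in cKO lists, 90.9%, was 85.1% at equal covered length, 1.60% with peaks of -log10 q of at least 2, and 90.8% to 91.0% without 1 pair. In B6CBAF1/J lists it was 91.6% at equal covered length, against 93.8%. The difference of -0.62 points in lists left out was -2.29 at equal covered length, 4.12 with domains from cKO lists, and -1.08 to -0.27 without 1 pair. Genes wholly inside were 1258 and genes with the promoter inside 2371, against 4104. Windows higher and lower in cKO than control, 17395 and 5777, were 3574 and 1526 at equal covered length, with fewer windows tested and all lists cut alike. Without 1 pair they were 10817 to 13328 higher and 2585 to 6457 lower, the higher ones at 10817 without Pgr-Cre GD14.5 IS and 11364 without GD18.5 IS, and the lower ones at 3473, 2757, 2626, 2585 and 2657 without GD5.5 IIS, GD8.5 IIS, GD14.5 IIS, Pgr-Cre GD14.5 IS and GD18.5 IS. Windows called between cKO IS and IIS were 5 higher and 4 lower at equal covered length, 2 of them inside domains, and at most 3 higher and 4 lower without 1 list, that of GD14.5 IIS. The fit without the replicate block (unpaired lists) gave 17589 and 6402; replicate numbers in the labels name samples that are pooled and pair none. Of 33 named domains, 24 had a lower cKO mean at equal covered length and 9 the same, and with -log10 q of at least 2, 27 were at 0%. For values not listed here, no setting moved a domain count by over 1.5 times. Pooled lists of unknown depth limit every value, and an absent peak does not show that the mark is absent.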

Other observations

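Chromosomes 11 and 19 had the largest share of their length in domains, 11.4% and 11.3%, and chromosome 14 the smallest, 6.77%. Chromosome 19 held 234 of the 7136 domains (3.28%), 8 of the 40 domains with a mean below 50% in B6CBAF1/J lists and 5 of the 24 with a mean below 50% in cKO lists. Of the 8 domains below 50% in both, 5 were on chromosome 19. The domains named next were chosen after their values were seen. Other domains low in B6CBAF1/J lists and high in cKO lists were at Fancc (85.5% in cKO lists and 33.4% in B6CBAF1/J lists, means), 1 of several domains each in Erc2 (92.3% in cKO lists and 42.7% in B6CBAF1/J lists) and Slc1a1 (92.1% in cKO lists and 46.8% in B6CBAF1/J lists). Near Chil4, the domain of the related gene Chil3 was covered at 31.7% after natural mating, 40.9% after vasectomized mating and 15.3% after progesterone, against 67.7% at GD0.5, so both neighbours were lower than at GD0.5. In the Kdm6b set, Chil3 was at 41.7% and 58.5% in cKO GD5.5 and GD8.5 IIS and at 71.3% to 81.1% in the later cKO lists. In control lists it was at 73.1% and 87.4% in GD5.5 and GD8.5 IIS and at 82.9% to 95.9% in the later lists, so the early and later control lists overlapped.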
